A study of Mus musculus with 4 samples.

Results

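The genes described here encode the machinery of oxidative phosphorylation, the pathway by which mitochondria turn the energy of food into ATP. They were the 109 of 41457 rows of the count table whose gene names mark subunits of respiratory complexes I to V, complex I assembly factors (names beginning Ndufaf) or the ribosomal RNAs of the mitochondrial genome. Of these, 15 are encoded in mitochondrial DNA (13 mRNAs and 2 ribosomal RNAs) and 94 in the nucleus. The samples are cultured mouse tumour cells labelled as colon, grown in RPMI medium. There is 1 control sample and 1 sample each of the lines M8, M32 and M83, all 3 labelled as ENU mutants (ENU, N-ethyl-N-nitrosourea, is an alkylating mutagen). Poly(A)-selected RNA was sequenced. Triplicate sequencing is mentioned in the study's design text, but each sample has 1 column in the table, called a library here. Whether a mutant line is 1 clone, and whether the control is its parent culture, is not given in the sources used here.

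Oxidative phosphorylation is built from the products of 2 genomes. Complexes I, III and IV pump protons across the inner mitochondrial membrane, complex II feeds electrons into the chain from succinate, and complex V, the ATP synthase, lets the protons flow back. The mitochondrial genome is transcribed into long precursor RNAs that are cut into single mRNAs, mostly at the transfer RNAs that lie between them. All subunits of complex II are nuclear, whereas complexes I, III, IV and V are mosaics of both genomes.

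The libraries held 25818148 (control), 28879954 (M8), 27312207 (M32) and 28011773 (M83) counts. Of the 8 colon epithelial markers, Epcam and Cdx2 were at 0 in all 4 libraries and Krt20 had 1008 to 3667 counts. The 5 mesenchymal markers together took 6665 to 8432 CPM (counts scaled to a common library total), the 6 leukocyte markers at most 0.842 CPM, the 3 endothelial markers at most 0.762 CPM and the 4 muscle markers at most 3.81 CPM. Krt18 had 710 to 1794 counts, while Krt8 had at most 22, Krt19 at most 30, Cdh1 at most 4 and Vil1 at most 2, so 6 of the 8 were at or near 0. With 1 library a line there is no test of a single line, and the intervals given for single genes are exact 95% binomial intervals that cover counting error only. Fewer mitochondria or cells with a transcript and less of it per cell cannot be told apart in bulk RNA.

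The mitochondrial genome packs its genes so tightly that neighbouring reading frames overlap, which limits how far single mitochondrial mRNAs can be told apart. Shown here are the 2 same-strand mRNA junctions of the plus strand of the mitochondrial chromosome (M, GRCm38) that carry a reading frame overlap of several bases, from the GENCODE vM21 transcripts, with 30 bases on either side. Capitals mark the bases that belong to both genes, 43 bases for mt-Atp8 and mt-Atp6 (chrM:7897-7999) and 7 bases for mt-Nd4l and mt-Nd4 (chrM:10137-10203).
mt-Atp8 to mt-Atp6: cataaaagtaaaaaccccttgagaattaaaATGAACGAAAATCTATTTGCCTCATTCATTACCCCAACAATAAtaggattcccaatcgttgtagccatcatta
mt-Nd4l to mt-Nd4: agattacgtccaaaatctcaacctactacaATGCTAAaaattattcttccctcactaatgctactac
In both cases the capitals open with the ATG of the downstream frame, and each pair is known to lie on a shared mRNA.

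In M8 the mRNAs made from mitochondrial DNA were lower than in every other library, while nuclear subunit genes were not. The 13 mitochondrial mRNAs together took 2.17%, 1.06%, 2.88% and 2.35% of all counts (control, M8, M32, M83). The 94 nuclear genes took 1.08%, 1.15%, 0.997% and 1.02% in the same order. The 2 mitochondrial ribosomal RNAs took 0.189%, 0.213%, 0.218% and 0.155%. M8 was thus the lowest library for the mRNAs, and neither for the ribosomal RNAs nor for the nuclear genes.

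**Figure D1:**
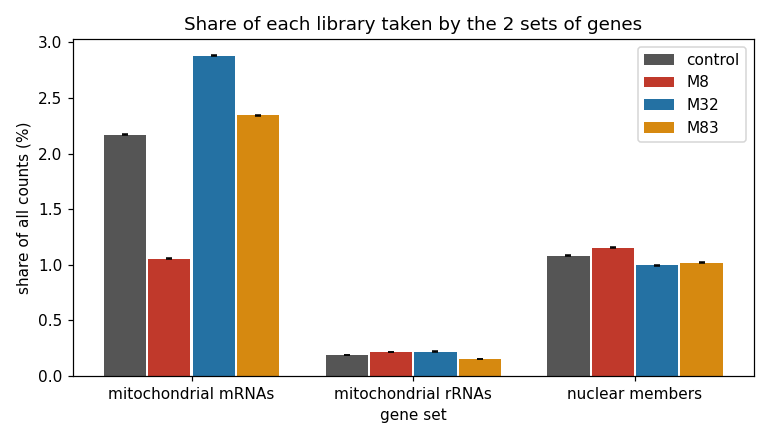
Share of all counts (%, y axis) taken by the 13 mitochondrial mRNAs, the 2 mitochondrial ribosomal RNAs and the 94 nuclear genes (x axis) in each of the 4 libraries (bars), with exact 95% counting intervals. The mRNA bar of M8 (1.06%) is the lowest of its set, and the nuclear bars lie between 0.997% and 1.15%.

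Counts of mitochondrial mRNA per count of nuclear subunit mRNA were 2.01, 0.916, 2.89 and 2.30 (control, M8, M32, M83). M8 was the only library with fewer counts from the mitochondrial mRNAs than from the nuclear genes. Per count of mitochondrial ribosomal RNA, the mRNAs gave 11.5, 4.95, 13.2 and 15.1 (control, M8, M32, M83). Both ratios use counts of 1 library alone and do not depend on how libraries are scaled to each other.

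All 13 mitochondrial mRNAs had their lowest scaled level in M8, where 26.4% of all 13576 tested genes did. Against control, 7 of them were at least 2-fold lower in M8 (background 4.54%) and 0 were higher. Log2 ratios compare CPM after scaling of the libraries to each other, with a prior count of 2, so negative values are lower than control. The median log2 ratio of the 13 mRNAs in M8 was -1.06, against 0.02 over all tested genes. These genes lie on 1 circular genome and share precursor RNAs, so they are not independent of each other. The other 2 lines took the opposite direction: in M32 all 13 mRNAs were above control (49.6% of all genes were), with a median of 0.51, and in M83 10 of 13 were (background 50.8%; the other 3 were mt-Co1, mt-Atp6 and mt-Cytb), with a median of 0.27. None was 2-fold higher in M32 (background 8.55%) or M83 (background 9.03%).

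**Figure D2:**
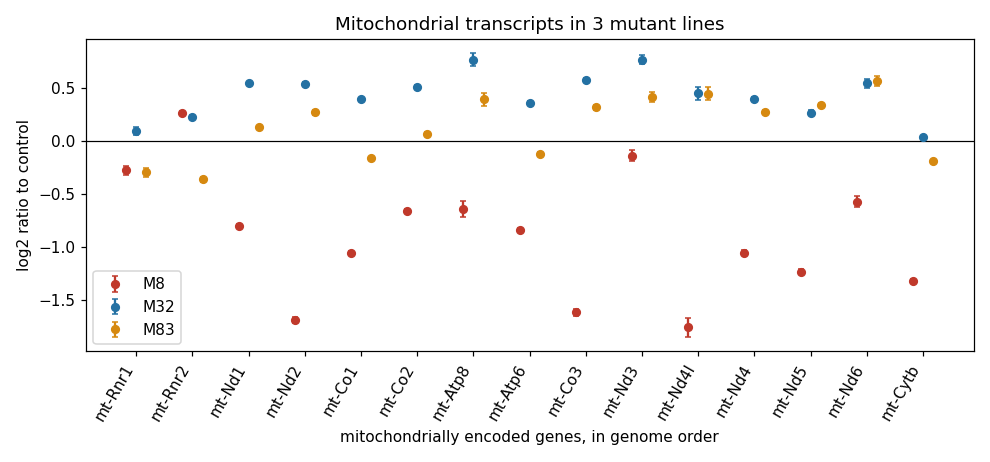
Log2 ratio to control (y axis) of the 15 mitochondrially encoded genes in genome order (x axis) for M8, M32 and M83 (points, with exact 95% counting intervals). The 13 mRNAs of M8 lie between -1.76 and -0.14, while mt-Rnr2 lies at 0.26.

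The position of M8 did not rest on the control library. Set against M32, 12 of the 13 mRNAs were at least 2-fold lower in M8 (background 6.89%), with a median of -1.41. Set against M83, 8 of 13 were (background 8.24%), with a median of -1.13. These comparisons share the M8 library.

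The 7 complex I subunits of the mitochondrial genome form part of the membrane arm that pumps protons. mt-Nd2 had 34210, 11791, 52668 and 46658 counts (control, M8, M32, M83). The M8 library stood below the other 3, with a log2 ratio to control of -1.70 (interval -1.73 to -1.66). mt-Nd4l, the shortest of them at 297 bases, had 3933, 1293, 5700 and 6072 counts and the lowest M8 ratio of all 15 genes, -1.76 (interval -1.85 to -1.67). mt-Nd4, which overlaps it by the 7 bases shown above, had 36721, 19677, 51300 and 50202 counts and a ratio of -1.06 in M8. mt-Nd5 had 36729, 17398, 46971 and 52632 counts (-1.24 in M8), and mt-Nd1 had 71493, 45603, 110774 and 88489 (-0.81). For these genes M8 was low and M32 and M83 were above control.

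At the other end, mt-Nd3 was nearly level between M8 and control. It had 6278, 6347, 11345 and 9484 counts (control, M8, M32, M83), with a log2 ratio in M8 of -0.14 (interval -0.19 to -0.09). Relative to M32 and M83 it was lower in M8 by log2 ratios of -0.91 and -0.56, the smallest differences of any mitochondrial mRNA in both comparisons. mt-Nd6, the only mRNA encoded on the other strand, had 6586, 4927, 10190 and 11033 counts and a ratio of -0.58 in M8. It overlaps the end of mt-Nd5, and since the strand setting of the counting is not given, reads from opposite strands at this site cannot be told apart.

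mt-Cytb, the mitochondrial subunit of complex III that carries the haem groups of cytochrome b, had 70774, 31559, 76969 and 70201 counts (control, M8, M32, M83). Its ratio in M8 was -1.32, and it stayed close to control in M32 (0.03) and M83 (-0.19).

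The 3 mitochondrial subunits of complex IV form its catalytic core. mt-Co1 was the most abundant gene of all 109 by counts, with 148828, 79735, 207315 and 150441 counts in control, M8, M32 and M83. mt-Co2 had 55665, 39220, 84391 and 66077 counts. mt-Co3 had 32488, 11779, 51460 and 45811 counts. Their log2 ratios in M8 were -1.06, -0.66 and -1.62, so within 1 enzyme core mt-Co3 was further down than mt-Co2. Counts of mt-Co2 per count of mt-Co3 were 1.71, 3.33, 1.64 and 1.44 (control, M8, M32, M83), with M8 apart from the other 3.

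The mitochondrial subunits of complex V were both lower in M8 than in control. mt-Atp8 had 3284, 2349, 5938 and 4881 counts (control, M8, M32, M83), a ratio of -0.64 in M8. mt-Atp6 had 53034, 33043, 72084 and 55171 counts, a ratio of -0.84. Its gene shares its last base with the first base of mt-Co3, yet counts of mt-Atp6 per count of mt-Co3 were 1.63 in control, 1.40 in M32 and 1.20 in M83, and 2.81 in M8. By counts, neighbours on the same precursor thus differed in how far they were down in M8. However, mt-Nd4l and mt-Nd4, known to lie on a shared mRNA, differed as well (-1.76 and -1.06). The ratio of a single gene may therefore not be that of its mRNA, and the reason was not tested. mt-Atp6 and mt-Co3 share nearly all of their sequence with other annotated transcripts, a limit given below.

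As a share of all mitochondrial mRNA counts, mt-Nd2 made up 6.11% in control and 3.87% in M8, and mt-Co3 5.80% and 3.87%. mt-Nd3 made up 1.12% and 2.08%, and mt-Co2 9.94% and 12.9%. mt-Co1 made up 26.6%, 26.2%, 26.3% and 22.9% (control, M8, M32, M83), near constant but for the lower share in M83. By these counts, with 1 library each, the profile of M8 differed from control in composition as well as in amount. Of the genes whose share differed, mt-Co3, mt-Nd3 and mt-Co2 share nearly all of their sequence with other annotated transcripts, and mt-Nd2 little (8.19%).

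Per kilobase of gene length, the most abundant mitochondrial mRNA in control was mt-Co1 at 3776 CPM per kilobase, followed by mt-Co2 (3190), mt-Atp6 (3053), mt-Nd1 (2928) and mt-Cytb (2425). In M8 the leading level was that of mt-Co2 at 2014 CPM per kilobase, above mt-Co1 at 1813. The lowest level in control was 497 for mt-Nd6, and in M8 153 for mt-Nd4l. With 1 library each, the order of close neighbours such as mt-Co2 and mt-Atp6 has no replicate error.

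The ribosomal RNAs of the mitochondrial ribosome, which a poly(A) selection captures only in part, differed from each other in M8. mt-Rnr2, the large subunit RNA, had 39547, 52992, 49003 and 34810 counts (control, M8, M32, M83), ratios of 0.26, 0.22 and -0.36. mt-Rnr1, the small subunit RNA, had 9331, 8582, 10584 and 8598 counts, ratios of -0.28, 0.09 and -0.30. mt-Rnr2 was lowest in M83. For mt-Rnr1 the intervals of M8 (-0.32 to -0.24) and M83 (-0.34 to -0.26) overlap, and with library size alone M8 (-0.28) lay below M83 (-0.24). The 22 mitochondrial transfer RNA rows had at most 6 counts in any library and gave no level.

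Across the 13 mRNAs, the ratio in M8 was related to GC content (Pearson's r -0.64, Spearman's rho -0.67) and little to position along the genome (0.03 and -0.04). The relation to length was -0.32 and -0.40 in M8, -0.638 and -0.632 in M32, and -0.416 and -0.555 in M83. The relation to GC content was -0.57 and -0.50 in M32 and -0.44 and -0.44 in M83, which share the control with M8. Without the control it was -0.46 and -0.37 for M8 against M32, and -0.38 and -0.24 for M8 against M83. The ratio in M83 was related to the level in CPM per kilobase, with r -0.83 and rho -0.89, so the more abundant mRNAs had the lower ratios. That relation to level was 0.11 and -0.005 in M8, and -0.24 and -0.26 in M32. GC content ranged from 31.9% (mt-Atp8) to 41.1% (mt-Nd4l). The 13 points share their libraries and precursor RNAs, so these are descriptions without a p.

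Nuclear DNA holds copies of parts of the mitochondrial genome, and reads from them can be assigned to either place. Of the 13 mRNAs, 7 (mt-Co1, mt-Co2, mt-Atp6, mt-Co3, mt-Nd3, mt-Nd4l and mt-Nd4) shared between 51.1% and 100% of their 50-base words with another annotated transcript, and 6 shared at most 8.19%. Their median ratios in M8 were -1.06 and -1.02, in M32 0.45 and 0.54, and in M83 0.27 and 0.30. The median in M8 was thus about as low in the 6 genes with few such words. Single ratios in M8 ranged from -1.7 to -0.58 in those 6 genes and from -1.76 to -0.14 in the 7. The medians do not bear on differences between single genes.

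The nuclear genes were near control in all 3 lines. Of the 94, 87 passed the filter on low counts. In M8, 50 of them were higher and 37 lower (all genes: 52.4% higher, 47.4% lower), with a median log2 ratio of 0.05 against 0.02 over all genes. In M32, 23 were higher and 64 lower, with a median of -0.15 against a background of 50.1% lower. In M83, 35 were higher and 52 lower, with a median of -0.07 against a background of 49.0% lower. The median of the mitochondrial genes minus that of the nuclear genes was -0.89, 0.59 and 0.34 (M8, M32, M83). All 87 nuclear genes lay above the median mitochondrial mRNA in M8, and 2 of 87 did in M32.

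**Figure D3:**
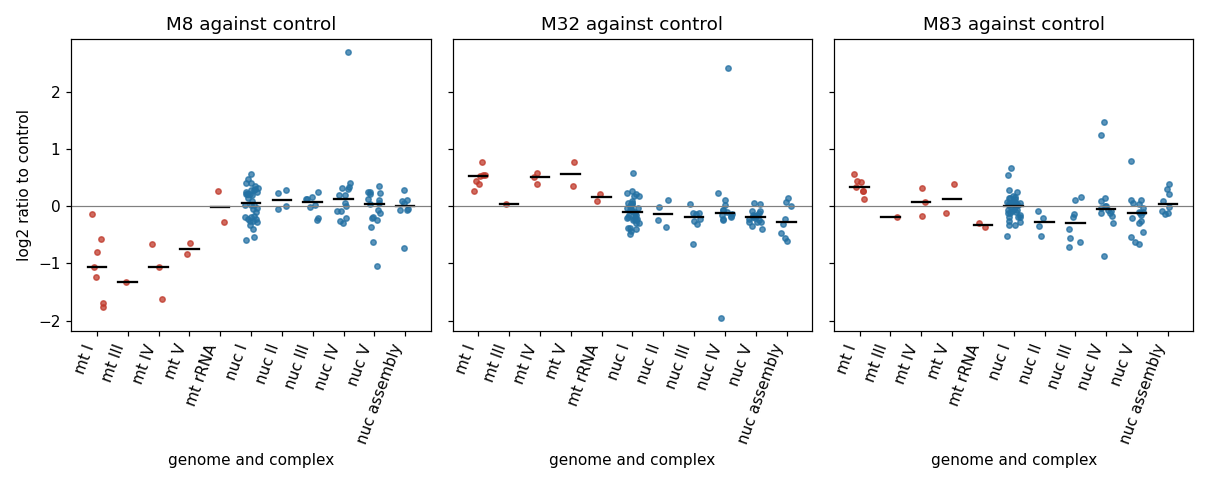
Log2 ratio to control (y axis) of each tested gene, by genome (mt, mitochondrial, red; nuc, nuclear, blue) and complex (x axis), with 1 panel a line and black bars at the medians. In M8 the mitochondrial mRNA groups lie at medians of -0.74 and lower, while the nuclear medians lie between -0.00 and 0.12.

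By level, 42 of the 87 nuclear genes were highest in M8 (background 27.2%) and 34 were lowest in M32 (background 22.3%). Of the 13 mitochondrial mRNAs, 11 were highest in M32 (background 23.1%) and the other 2, mt-Nd5 and mt-Nd6, in M83 (background 28.4%). The control library was the highest for 21 of the 87 nuclear genes, near the background of 21.3%.

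Complex I, the entry point of electrons from NADH, had 36 tested nuclear subunits. In M8, 21 were higher (background 52.4%) and 15 lower (background 47.4%), and in M32, 24 were lower (background 50.1%). Their medians were 0.06, -0.10 and 0.01 (M8, M32, M83). Ndufs1, a core subunit and among the most abundant by CPM, had 4152, 5519, 3884 and 3738 counts (control, M8, M32, M83). It was highest in M8, with a ratio of 0.25, and did not come near a 2-fold difference. The highest complex I genes in M8 were Ndufa2 (2040, 3349, 1839 and 2306 counts, ratio 0.56) and Ndufb5 (1290, 2012, 1315 and 1389 counts, ratio 0.48). In M32 the highest was Ndufs8, which encodes a core iron-sulphur subunit, with 964, 1419, 1524 and 1198 counts and a ratio of 0.57, followed by Ndufb4 at 0.26.

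Complex I assembly factors help to build the complex without remaining in it. Of 8, 4 were lower in M8 (background 47.4%), 5 in M32 (background 50.1%) and 4 in M83 (background 49.0%). Ndufaf3 had 87, 58, 60 and 130 counts (control, M8, M32, M83). Its ratios were -0.72 in M8 (interval -1.25 to -0.25) and -0.61 in M32, on low counts.

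Complex II oxidises succinate and belongs to the citric acid cycle as well. Sdha, its flavin subunit, had 6075, 6522, 6375 and 4812 counts (control, M8, M32, M83). Sdhb, the iron-sulphur subunit, had 2834, 3702, 2543 and 3020 counts. The membrane anchors Sdhc and Sdhd had 1971, 2668, 2245 and 1935 counts and 2456, 2736, 2017 and 2182 counts. All 4 were below control in M83 (background 49.0%), with ratios of -0.52, -0.09, -0.21 and -0.35. Their median in M8 was 0.11.

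Complex III passes electrons to cytochrome c. Uqcrc1 and Uqcrc2, its core proteins, had ratios of 0.25 and -0.24 in M8. In M83, 6 of its 8 nuclear genes were lower (background 49.0%), with a median of -0.29. Uqcrfs1, the Rieske iron-sulphur protein gene, had 2383, 2906, 2039 and 1647 counts (control, M8, M32, M83), a ratio of -0.71 in M83. Uqcr11, a small subunit, was the lowest gene of complex III in M32, with 1922, 1852, 1297 and 1921 counts and a ratio of -0.65.

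Complex IV, cytochrome c oxidase, had 14 of 20 nuclear genes tested. Cox4i1 and Cox6a1, its most abundant by CPM, had 10120, 14876, 10223 and 10760 counts and 6413, 8839, 5829 and 6728 counts in control, M8, M32 and M83. Both were highest in M8, with ratios of 0.40 and 0.30. Ndufa4, named after complex I and now counted as a subunit of complex IV, had 4341, 4586, 4102 and 2704 counts. It was the lowest nuclear gene in M83, with a ratio of -0.86.

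Several complex IV subunits exist in tissue-restricted forms, and the broad forms made up nearly all counts here. Cox4i2 had 0, 0, 3 and 4 counts beside the Cox4i1 values above, Cox6b2 had 0, 0, 0 and 4, and Ndufa4l2 0, 2, 2 and 6. Cox7b2, Cox8b and Cox8c had 0 counts in all libraries, where 3 counts (0.116 CPM in control) is the upper limit that a count of 0 allows. Their broad partners Cox6b1, Cox7b and Cox8a had 3836, 2658 and 4973 counts in control. These 6 genes, with a duplicate row of Atp5o, are the 7 nuclear genes that did not pass the filter.

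Cox6a2, the heart and muscle form of subunit 6a, had the highest ratio of all nuclear genes in each line, at a very low level. It had 8, 69, 54 and 29 counts (control, M8, M32, M83), log2 ratios of 2.69 (interval 1.89 to 4.22), 2.42 and 1.48. All 3 lines were above control, as for 10 of the 87 nuclear genes (background 23.3%). Its broad partner Cox6a1 held 6413 counts in control. The 4 muscle markers summed to 1.90, 2.46, 3.81 and 1.54 CPM (control, M8, M32, M83), and their part in the result was not tested. Of their counts, Des had 34, 42, 61 and 9, Acta1 12, 12, 30 and 13, Myh7 3, 15, 13 and 21, and Ckm 0, 2, 0 and 0. Cox6a2 shares 3.33% of its 50-base words with Itgad. Cox7a1, another muscle form, had 9, 8, 1 and 27 counts, with a ratio of -1.96 in M32 and 1.24 in M83 that rest on these few counts. Its partner Cox7a2 had 2381, 2164, 2134 and 2499.

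Past 2-fold, the nuclear set held 1 lower (background 4.54%) and 1 higher gene (background 7.36%) in M8, 1 lower (background 3.38%) and 1 higher (background 8.55%) in M32, and 0 lower (background 3.66%) and 2 higher (background 9.03%) in M83. These were Atp5g2, Cox6a2 and Cox7a1. Each of these counts is a smaller share of the 87 than its background. At 1.5-fold, 4, 3 and 5 nuclear genes were lower in M8 (background 10.6%), M32 (background 8.04%) and M83 (background 9.61%), and 1, 1 and 4 higher (backgrounds 13.6%, 15.1% and 15.9%).

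Complex V has a catalytic head whose main subunits are Atp5a1 and Atp5b. Atp5b had 49068, 59794, 49317 and 51374 counts (control, M8, M32, M83), and Atp5a1 had 22254, 29473, 20402 and 21111. Both were highest in M8 by a small margin, with ratios of 0.13 and 0.25. Atp5s, a low-level coupling factor gene, had 62, 44, 68 and 123 counts, with ratios of -0.63 in M8 and 0.79 in M83. It lies on chromosome 12, whose 474 tested genes had a median ratio of -0.52 in M8 and 0.15 in M83.

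The c subunit, which forms the rotating ring of the ATP synthase, is encoded by 3 nuclear genes whose mature proteins are known to be the same. Atp5g2 (chromosome 15, positions 102662864 to 102672352, minus strand) had 6101, 3296, 6730 and 4366 counts (control, M8, M32, M83). It was the only nuclear gene 2-fold lower in M8, with a ratio of -1.05 (interval -1.11 to -0.99), and was also lower in M83 (-0.66). Its 20 tested neighbours on the chromosome had a median ratio of 0.01 in M8 and -0.40 in M83. Atp5g3 (chromosome 2, positions 73908447 to 73911326) went the other way in M8, with 9990, 14311, 9020 and 9282 counts and a ratio of 0.36. Atp5g1 (chromosome 11, positions 96068852 to 96075670) was level, with 2060, 2391, 2061 and 2436 counts.

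**Figure D4:**
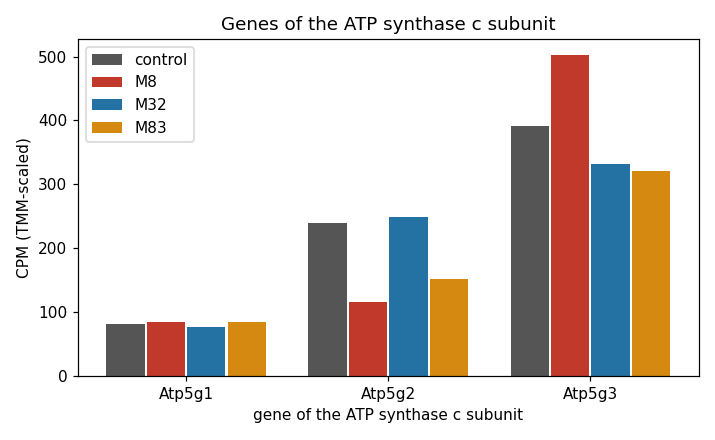
Level in CPM after scaling (y axis) of the 3 genes of the ATP synthase c subunit (x axis) in the 4 libraries (bars, 1 library each, no error bar). Atp5g2 is lowest in M8 at 116 CPM against 239 CPM in control, and Atp5g3 is highest in M8 at 503 CPM.

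The 3 genes together had 18151, 19998, 17811 and 16084 counts (control, M8, M32, M83). Atp5g2 made up 33.6%, 16.5%, 37.8% and 27.1% of them in the same order. The sum thus varied less than the part of Atp5g2. The sums are raw counts, not scaled for the unlike library totals, while the part of Atp5g2 does not depend on scaling. Atp5g2 shares 38.4% of its words with other transcripts, among them Gm10175 and Gm10231, so part of its reads may be assigned elsewhere.

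The promoters of Atp5g2 and Atp5g3, which differed in direction in M8, are shown for the 250 bases before the start site (RefSeq, GRCm38.p6, 5′ to 3′ on the minus strand). Capitals mark matches on either strand to GCATGCGC, the core of the motif of NRF1, a factor known to act on nuclear genes of respiration, or to CCGGAAGT, a motif of the GABP factor.
Atp5g2, chr15:102671048-102671297: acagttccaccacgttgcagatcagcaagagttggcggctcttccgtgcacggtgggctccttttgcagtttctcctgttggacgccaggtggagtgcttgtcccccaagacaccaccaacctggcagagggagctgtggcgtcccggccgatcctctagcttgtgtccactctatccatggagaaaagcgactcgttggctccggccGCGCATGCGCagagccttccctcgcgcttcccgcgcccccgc
Atp5g3, chr2:73911327-73911576: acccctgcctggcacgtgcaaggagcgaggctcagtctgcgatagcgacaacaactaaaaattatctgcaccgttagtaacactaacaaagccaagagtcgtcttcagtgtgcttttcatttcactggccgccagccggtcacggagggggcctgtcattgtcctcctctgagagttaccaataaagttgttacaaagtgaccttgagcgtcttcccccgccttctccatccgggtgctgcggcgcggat
The capitals of Atp5g2 are matches to the core on both strands that overlap each other, and the windows of Atp5g3 and Atp5g1 hold none. The start site of Atp5g2 in RefSeq lies inside the gene bounds of GENCODE given above. Among the 73 nuclear genes matched in the promoter table, the core was present in 9 (12.3%), against 2.56% of all 27025 genes in it and 2.26% of its 32851 promoters. CCGGAAGT was present in 3 (4.11%), against 3.23% of genes and 2.88% of promoters. Of the other 8 genes with the core, 6 were higher in M8 (background 52.4%) and 2 lower (background 47.4%). The higher ones were Ndufa8, Ndufaf4, Sdhb, Cox6a1, Atp5l and Ndufa11, with ratios of 0.10 to 0.30. The lower ones were Atp5k (-0.37) and Ndufa6 (-0.25). A match is a description of letters and not a site of binding.

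In M83 the lower nuclear genes tended to lie among lower neighbours. The neighbours of a gene are the up to 20 tested genes adjacent to it in order along the chromosome. Equally many were taken on either side, and fewer near a chromosome end. Across the 87 tested nuclear genes, the ratio in M83 was related to the median of the neighbours (Spearman's rho 0.49, Pearson's r 0.43). The rho was 0.10 in M8 and 0.33 in M32. These points share their libraries and are a description. Chromosome 16 had a median of -0.53 over its 397 tested genes in M83. Of the members on it, Atp5o (row ENSMUSG00000022956) was at -0.63 with neighbours at -0.67, Atp5j at -0.45 with neighbours at -0.42, and Ndufb4 at 0.16 with neighbours at -0.64. Chromosome 13 (median -0.20 over 528 genes) holds 7 tested nuclear members, 5 of them lower (background 49.0%). Uqcrfs1, Uqcrb, Sdha and Ndufs6 were at -0.71, -0.56, -0.52 and -0.52, with neighbours at -0.20, -0.15, -0.32 and -0.43. Cox7c, Ndufs4 and Ndufaf2 were at -0.18, 0.03 and 0.30, with neighbours at -0.10, 0.17 and 0.01. Ndufa4 on chromosome 6 was at -0.86 with neighbours at -0.40.

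**Figure D5:**
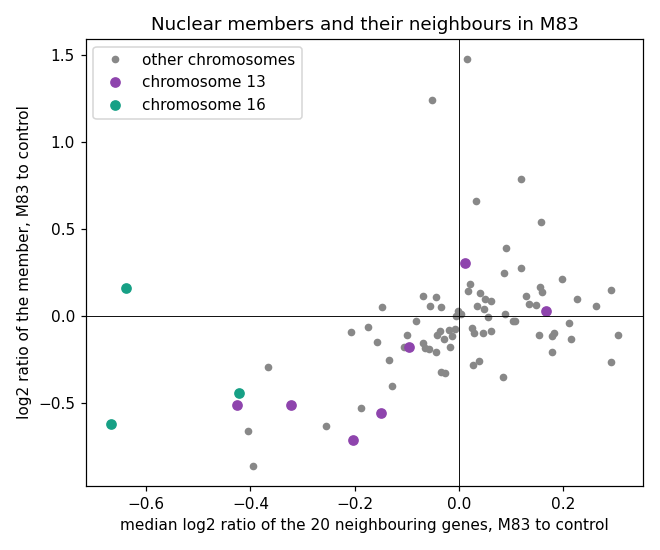
Log2 ratio of each of the 87 tested nuclear genes in M83 against control (y axis), 1 point a gene. The x axis gives the median ratio of the up to 20 adjacent tested genes on the chromosome. Chromosomes 13 and 16 are coloured. Genes with neighbours below -0.20 are mostly below 0, and Ndufb4 on chromosome 16 is an exception at 0.16.

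Other mitochondrial genes of the nucleus also had medians near 0, but in M32 most genes of each list below were lower than control. The 78 mitochondrial ribosomal protein genes had medians of 0.02, -0.20 and -0.08 (M8, M32, M83). Of them, 34, 63 and 53 were lower (backgrounds 47.4%, 50.1% and 49.0%). Past 2-fold lower were Mrpl42 in M8 (-1.01, background 4.54%) and Mrps6 in M83 (-1.15, background 3.66%), 1 of 78 in each of these lines. The 35 assembly and electron carrier genes outside the name rule had medians of -0.03, -0.17 and -0.05, with 18, 29 and 20 lower. Cycs, which encodes cytochrome c, had 3896, 3581, 3022 and 3581 counts, and Cyc1, the cytochrome subunit of complex III, 5124, 6594, 5060 and 4793. In M8, 3 of these 35 were 2-fold lower (background 4.54%), namely Nubpl (-1.13), a complex I assembly gene on chromosome 12, Sdhaf3 (-1.10) and Lyrm7 (-1.01). The 15 genes listed for the citric acid cycle include Pdha1 and Pdhb, which encode pyruvate dehydrogenase and not an enzyme of the cycle itself. The list had medians of -0.19, -0.11 and -0.10, with 10, 14 and 9 lower and none past 2-fold. Pdha1 and Pdhb were its highest genes in M8 (0.23 and 0.27), and Pdha1 was the only one above control in M32 (0.20). Cs, citrate synthase, had 13452, 12757, 13221 and 12751 counts.

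With the mutant lines as 1 group of 3, a quasi-likelihood test in edgeR over all genes compared them with the control. None of the 102 tested members passed, where 0.00737% of all genes did, and DESeq2 called none of them either. At an unadjusted p under 0.05 edgeR listed 1, Cox6a2 (log2 difference 2.51, SE 0.88, adjusted p = 1), where 3.30% of all genes were listed. The share of counts from mitochondrial mRNAs was 2.09% ± 0.939 (SD, n = 3) in the lines and 2.17% in control, with an exact two-sided permutation p of 1 in a design whose smallest possible p is 0.25. For mt-Cytb the log2 difference was -0.38 (SE 0.47) and for mt-Nd6 0.26 (SE 0.45), each an average over lines that lay apart, with M8 the lowest for both. This fit takes the control to vary as the lines do. Since nothing says that the samples are separate cultures, the p-values reflect the spread among these libraries alone, which may be technical.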

How the data were processed

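Poly(A) RNA of 4 cultured samples was sequenced, libraries having been made with the NEBNext kits, per the labels' protocols. Whole-number raw counts, not normalised, were deposited for each gene. The submitters' processing notes name GRCm38 as the build. For aligner, counter, annotation and strand setting the sources used here give nothing. From the deposited counts, edgeR 4.0.16 (R 4.3.3) was run on all rows with filterByExpr (13576 genes, TMM factors 0.986 to 1.03), giving CPM, log2 ratios (prior count 2) and the quasi-likelihood test with Benjamini-Hochberg adjustment (3 lines against 1 control, 2 residual degrees of freedom). DESeq2 1.42.0 was an alternative. A single line was called at 2-fold, with no test. Positions, exon lengths and words of 50 bases came from GENCODE vM21, which held all 109 genes. Complexes were assigned by name, with Ndufa4 and Ndufa4l2 in complex IV. Genes were named by rule: all mitochondrial genes, Sdha to Sdhd, the 2 most abundant genes a complex, the 3 highest and 3 lowest a line, those past 2-fold, and isoform pairs. One gene that the rule names is not reported here. Others, such as the genes on chromosomes 13 and 16, the neighbour medians, GC content and motifs, were chosen after their values were seen. The members and lists were chosen with earlier results of these data known. The test was tried on simulated data of 13174 genes. It recovered 10% of 50 genes changed 2-fold and 73.5% of 49 changed 4-fold, with 9 false calls. A gene that did not pass may therefore still differ by 2-fold.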

Additional observations from a re-analysis of the deposited data

Results flagged for a closer look

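The mitochondrially encoded genes took opposite directions in different lines. Their median log2 ratio to control was negative in M8 (-0.84) and positive in M32 (0.45) and M83 (0.27), so M8 differed from M32 by -1.29 and from M83 by -1.11. Each line has 1 library, and the difference was not tested.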

How the results depend on the processing

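Neither the mitochondrial nor the nuclear median, and no gene past 2-fold, changed direction under the settings run. Library size alone raised ratios in M83, such as that of Sdhb from -0.09 to -0.03. Medians of single complexes or of the other lists that lie near 0 may therefore change sign with the setting. Among the genes named by rule, library size alone changed the sign for Ndufa2 in M83 (-0.0037 to 0.06), Cox8a in M83 (-0.03 to 0.03) and Cox7b in M8 (0.0029 to -0.00053). DESeq2's size factors did so for Cox7b in M8 (-0.0044). Other genes this close to 0 are not listed here, so the numbers of genes above and below control depend in part on scaling. Without the ribosomal RNAs the mitochondrial median was -1.06 in M8 and 0.51 in M32, and its distance from the nuclear median -1.11 in M8. With no filter on low counts the mitochondrial medians were -0.87, 0.41 and 0.23 (M8, M32, M83), and with library size alone 0.33 in M83. An alternative chosen after seeing the data kept only the mitochondrial genes that share under 10% of their words, both ribosomal RNAs among them. The mitochondrial median was then -0.72, 0.40 and 0.20 (M8, M32, M83), and its distance from the nuclear median -0.77 in M8. The 6 mRNAs of that set alone had a median of -1.02 in M8. At 1.5-fold in place of 2-fold, 11 of the 15 mitochondrial genes were lower in M8 (background 10.6%) and 2 of 15 higher in M32 (background 15.1%). Of the 87 nuclear genes, 4, 3 and 5 were lower (M8, M32, M83, backgrounds 10.6%, 8.04% and 9.61%). In M83, 4 of them were higher (background 15.9%). Without the ribosomal RNAs the mitochondrial share was 2.17%, 1.06%, 2.88% and 2.35% (control, M8, M32, M83). The lines against control gave 1 call over all genes, 2 with no filter and 40 in DESeq2, with 0 among the members in each, also without any 1 line (1 call over all genes each time). No paired analysis was possible because the labels give no replicate numbers and the control is 1 sample. The number of libraries, not depth, limits these results, except for genes of few counts such as Cox6a2, Cox7a1 and Atp5s.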
